A study of Mus musculus with 18 samples.

Results

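The collagen genes and the genes of the enzymes and the chaperone that modify, fold and cross-link collagen were followed across 3 kinds of mouse sample, with and without cyclin C. The members were a list of 45 genes, 33 collagen genes and 12 others. Row identifiers were matched to RefSeq symbols, and the probe set with the highest mean stood for each gene. Of the 45, 44 were measured, out of 17091 genes with a symbol, and Col12a1 had no matched probe set. The 44 comprised 10 fibrillar, 6 basement membrane, 3 beaded-filament, 5 FACIT (fibril-associated) and 8 other collagen genes, and 12 enzyme and chaperone genes.

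The samples were Ccnc knockout (CCNC-/- in the labels) and wild-type primary embryonic fibroblasts, Ccnc knockout and wild-type embryonic brain at stage E18.5, and Ccnc knockout and wild-type embryonic stem (ES) cells. Ccnc encodes cyclin C, which with its kinases CDK8 and CDK19 forms part of the kinase module of the transcriptional coactivator Mediator. Each of the 6 groups had 3 single-colour arrays, 18 in all. No other allele, agent or treatment is named for any group. The sources used here do not say how the gene was deleted, which ES cell line or clones were used, or how many animals stand behind each fibroblast or brain sample. The labels call the samples of a group biological replicates but tie them to no separate animal or culture, so each p-value measures the spread between these samples, which may be technical. Values are log2 expression after robust multi-array averaging, and all differences are on that scale.

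Collagens are trimers of chains that wind into a triple helix. Fibrillar collagens form the tension-bearing fibres of connective tissue, type IV collagen forms the network of basement membranes, type VI collagen forms beaded filaments near cells, and FACIT collagens sit on the surface of fibrils. Before secretion, prolyl and lysyl hydroxylases modify the chains and a dedicated chaperone guards the helix, and after secretion lysyl oxidases cross-link the fibres. Fibroblasts are the classic source of fibrillar collagen, whereas in brain collagen is found mainly in vessels and meninges.

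The targeted gene, Ccnc, read 8.28, 8.24 and 8.30 in knockout fibroblasts, against 9.56, 9.61 and 9.54 in wild type. In brain it read 8.17, 8.08 and 8.37 in the knockout, against 8.82, 8.65 and 9.24 in wild type, and in ES cells 6.68, 6.78 and 7.33 in the knockout, against 9.28, 9.47 and 9.14 in wild type. No knockout array reached the wild-type range of its kind, with differences of -1.29, -0.69 and -2.37. These left 40.8%, 61.8% and 19.4% of the wild-type array signal. How much of the remaining signal was background and how much retained transcript was not tested. By limma, adjusted over all genes, the fall passed 0.05 in fibroblasts (adjusted p = 6.77e-06) and ES cells (0.0247). In brain it did not pass (0.627). Marker genes bore out the labels: the mean of 12 fibroblast markers was 11.69 to 11.75 in wild-type fibroblasts, against 7.88 to 8.18 in brain and 7.07 to 7.16 in ES cells. The mean of 12 neural markers was 11.05 to 11.13 in wild-type brain and at most 7.08 in the other wild-type arrays. That of 8 ES cell markers was 12.65 to 12.92 in wild-type ES cells and at most 7.29 in the other wild-type arrays. Replicates differed by a median SD per gene of 0.079 (knockout) and 0.064 (wild type) for fibroblasts, 0.105 and 0.117 for brain, and 0.164 and 0.149 for ES cells. The ES cell comparison was therefore the least precise of the 3.

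The levels in the wild-type samples were compared first. Of the 44 members, 34 had their highest mean in fibroblasts, 5 in brain and 5 in ES cells. The lead over the next group passed the test (limma, Benjamini-Hochberg adjusted p below 0.05 over 17091 genes) for 30, 3 and 4 of them. Against brain, 32 members were higher and 5 lower in fibroblasts, where 35.2% of all genes were higher and 25.1% lower. Against ES cells, 34 were higher and 5 lower in fibroblasts, where 23.8% and 39.8% of all genes were. The median difference of the members was 2.25 from brain and 1.64 from ES cells, against 0.11 and -0.14 for all genes. Between brain and ES cells, 18 members were higher and 13 lower in brain (25.9% and 47.8% of all genes), with a median of 0.12 against -0.23 for all genes. The median of all genes moved with the scaling, to -0.04 for fibroblasts against ES cells and -0.07 for brain against ES cells under quantile normalization. The counts then were 35 and 4, and 20 and 11. The count of members lower in fibroblasts than in brain was 3, not 5, without wild-type fibroblast array 1, 2 or 3 or without wild-type brain array 3. These are bulk samples, in which more cells of a type and more RNA per cell cannot be told apart.

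**Figure D1:**
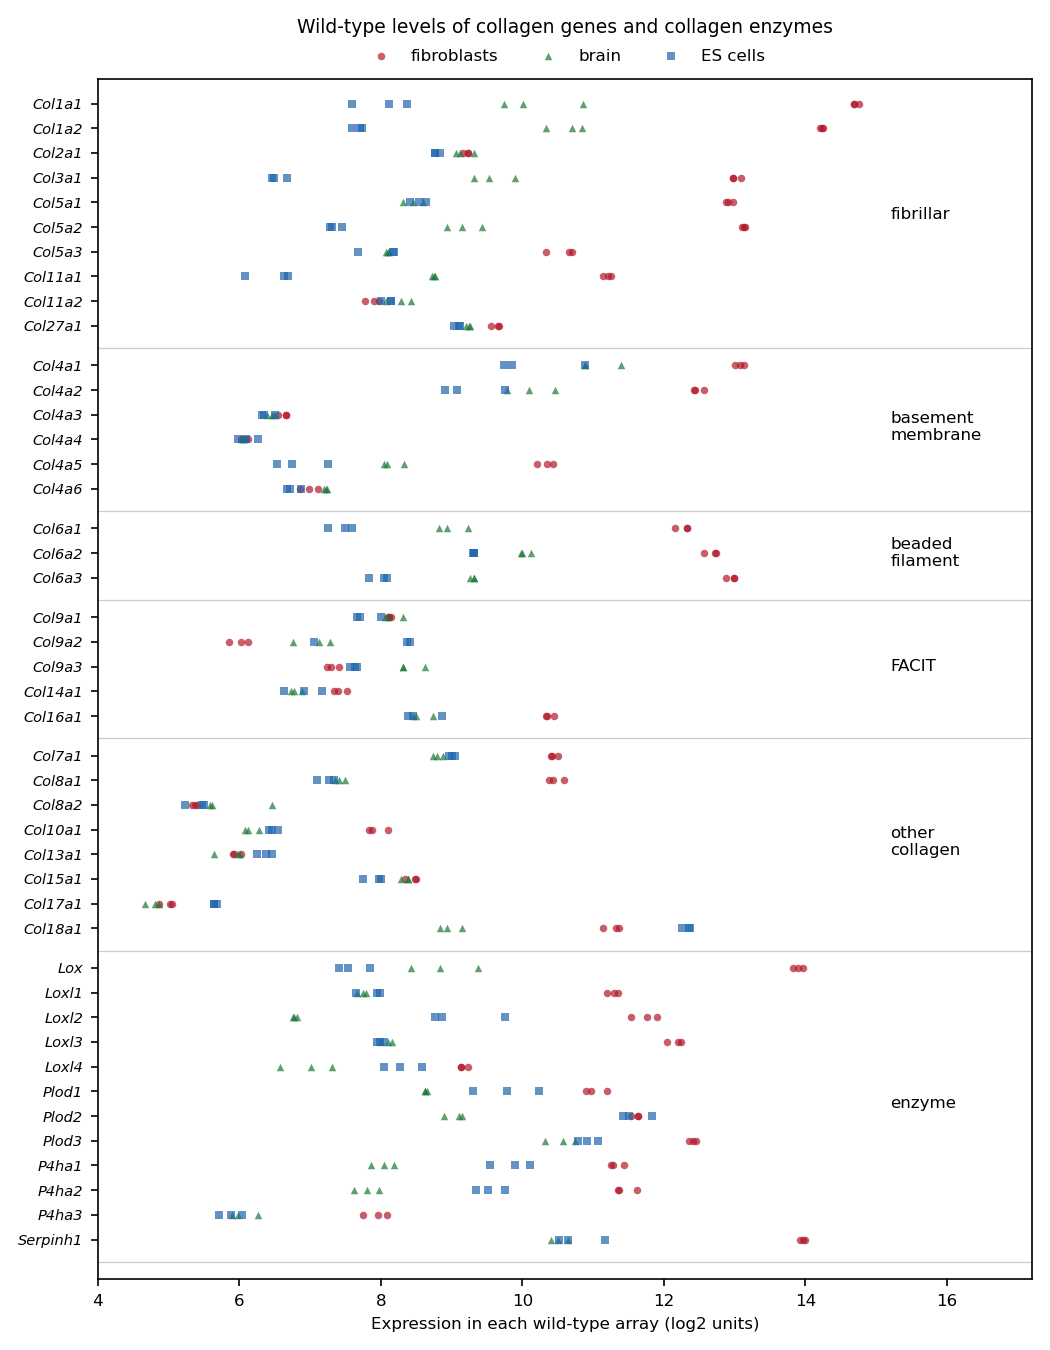
Level of each of the 44 members in every wild-type array, in log2 units on the x axis, with 3 points each for fibroblasts, brain and ES cells and the genes grouped by class. The 3 fibroblast points lie to the right for 34 members by their mean, while Col18a1 is highest in ES cells at 12.32 and Col9a3 in brain at 8.42.

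Among the fibrillar collagens, 9 of 10 had their highest mean in wild-type fibroblasts, 8 of them past the test. Col1a1, the major chain of type I collagen, read 14.68, 14.76 and 14.69 in fibroblasts, 10.85, 9.74 and 10.01 in brain, and 7.59, 8.37 and 8.12 in ES cells. The 3 groups did not overlap, and fibroblasts exceeded brain by 4.51 (SE 0.26). Its partner chain Col1a2 averaged 14.23 ± 0.02 in fibroblasts, 10.63 ± 0.25 in brain and 7.68 ± 0.07 in ES cells (SD, n = 3 each). Col3a1, the chain of type III collagen of elastic tissues, averaged 13.01 ± 0.06 in fibroblasts, 9.59 ± 0.29 in brain and 6.55 ± 0.12 in ES cells. Each of these steps passed the test. Col5a1, a type V chain that helps start fibrils, averaged 12.92 ± 0.06 in fibroblasts, 8.46 ± 0.14 in brain and 8.53 ± 0.11 in ES cells, and brain and ES cells did not differ beyond their spread (adjusted p = 0.502). Col5a2 and Col11a1 followed the order of type I collagen, with steps of 3.96 and 2.45 between fibroblasts and brain and 1.82 and 2.28 between brain and ES cells. The cartilage collagens Col2a1 and Col11a2 were nearly flat: the largest difference between any 2 of the 3 means was 0.42 for Col2a1, and Col11a2 was 0.37 lower in fibroblasts than in brain. The mean of 9 cartilage markers was 6.39 to 6.88 in all wild-type arrays.

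The basement membrane collagens fell into 2 kinds. Col4a1 and Col4a2, the chains of the most widespread type IV trimer, averaged 13.07 ± 0.06 and 12.48 ± 0.08 in fibroblasts, 11.05 ± 0.30 and 10.11 ± 0.34 in brain, and 10.16 ± 0.63 and 9.25 ± 0.45 in ES cells. All steps passed the test. Col4a5, a chain of the glomerular and lens networks, was also ordered fibroblasts, brain, ES cells, at 10.33 ± 0.12, 8.16 ± 0.15 and 6.84 ± 0.37. By contrast Col4a3 and Col4a4, which join Col4a5 in that trimer, moved by no more than 0.43 and 0.29 over all 18 arrays, between 6.27 and 6.70 and between 5.98 and 6.27. Both read below the array medians of 8.26 to 8.35, and whether either gene was detected was not tested. Col4a6 was highest in brain, by 0.24 over fibroblasts (adjusted p = 0.0462). The 3 type VI chains all had the order fibroblasts, brain, ES cells, with leads of 3.27 (Col6a1), 2.64 (Col6a2) and 3.66 (Col6a3) in fibroblasts over brain.

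FACIT and other collagens were the least fibroblast-centred classes. The type IX genes, known from cartilage and vitreous, had their highest means elsewhere: Col9a1 led in brain by 0.03 over fibroblasts (adjusted p = 0.805), Col9a2 averaged 7.94 ± 0.78 in ES cells, against 7.06 ± 0.27 in brain and 6.0 ± 0.15 in fibroblasts, and Col9a3 averaged 8.42 ± 0.18 in brain, against 7.63 ± 0.05 in ES cells and 7.32 ± 0.09 in fibroblasts. Col16a1, a FACIT collagen of fibroblasts and smooth muscle, averaged 10.38 ± 0.07 in fibroblasts and 8.57 in both brain and ES cells. Col18a1, the basement membrane collagen whose cleaved end is endostatin, was highest in ES cells and lowest in brain. Wild-type ES cells had 12.36, 12.35 and 12.25, while fibroblasts had 11.32, 11.36 and 11.14 and brain had 9.15, 8.93 and 8.84. ES cells exceeded fibroblasts by 1.05 and fibroblasts exceeded brain by 2.30. Col17a1, a hemidesmosome collagen of epithelia, and the transmembrane collagen Col13a1 also had their highest readings in ES cells, at 5.66 ± 0.02 and 6.37 ± 0.11, against 4.98 ± 0.10 and 5.96 ± 0.06 in fibroblasts. These readings are low, since the array medians were 8.26 to 8.35, and whether either gene was detected was not tested. Col8a1 and Col10a1, both short-chain collagens, and Col7a1, the anchoring fibril collagen, led in fibroblasts by 3.05, 1.46 and 1.44 over the next group. Col15a1 was 0.10 apart between fibroblasts and brain (adjusted p = 0.407).

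All 12 enzyme and chaperone genes had their highest mean in wild-type fibroblasts, 11 of them past the test. Lox, the founding lysyl oxidase, averaged 13.90 ± 0.07 in fibroblasts, 8.87 ± 0.48 in brain and 7.59 ± 0.23 in ES cells. Its relatives Loxl1 and Loxl3 led by 3.42 and 4.07, and Loxl2 and Loxl4 by 2.59 and 0.87. Serpinh1, which encodes the collagen chaperone HSP47, averaged 13.96 ± 0.04 in fibroblasts, 10.52 ± 0.11 in brain and 10.78 ± 0.35 in ES cells. The exception was Plod2, the lysyl hydroxylase that acts on telopeptides: it averaged 11.60 ± 0.05 in fibroblasts and 11.58 ± 0.22 in ES cells, a difference of 0.02 (adjusted p = 0.906), and 9.05 ± 0.14 in brain. Between brain and ES cells, where 25.9% of all genes were higher and 47.8% lower in brain, 17 of 32 collagens were higher and 6 lower in brain by the test. No test compared the classes. Of the 12 enzymes, Lox alone was higher in brain (1.28), while 7 were lower: Loxl2 (-2.36), Loxl4 (-1.33), Plod1 (-1.14), Plod2 (-2.53), Plod3 (-0.38), P4ha1 (-1.82) and P4ha2 (-1.74). P4ha1 and P4ha2 encode catalytic subunits of the prolyl hydroxylase that stabilises the helix.

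In fibroblasts, loss of cyclin C went with a change of 13 of the 44 members, 10 higher and 3 lower. Among all genes 7.11% were higher and 4.93% lower, 12.0% in all. The members' median difference was 0.07 and all genes' 0.01, and the median size of a difference was 0.14 for the members and 0.09 for all genes. Every change was small, between -0.27 and 0.51, which is a range of 83.2% to 142% of the wild-type level. The knockout and wild-type arrays did not overlap for 16 members, 11 higher and 5 lower, and for 30.9% of all genes, 18.4% higher and 12.5% lower. The split depended on scaling, with 7 higher and 4 lower after quantile normalization. The share of all genes depended on the low readings. Of the 10254 genes above the 40th percentile of gene means, 1364 were higher and 789 lower. Of the 33 members among them, 11 were higher and 4 lower. With the replicate number as a block, 14 were higher and 7 lower (10.3% and 7.03% of all genes). That pairing was inferred from the values of these same arrays, and the labels do not state it. The adjusted p-values given below with the block are therefore alternatives and do not replace the main test. The count of higher members was 5 without wild-type array 3 or knockout array 2, that of lower members was 1 without wild-type array 2, and 1 fit of all 18 arrays, which pools the spread of the 3 cell types, called 2 higher, Col7a1 and Col18a1, and 0 lower.

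Increases among the members included the basement membrane collagen Col18a1, chains of type VI collagen and the anchoring fibril gene Col7a1. Col18a1 read 11.73, 11.86 and 11.75 in knockout fibroblasts, against 11.32, 11.36 and 11.14 in wild type. The difference was 0.51 (SE 0.06, limma adjusted p = 0.00167), and no knockout array fell into the wild-type range. Col6a3, the long chain of type VI collagen, read 13.37, 13.48 and 13.45 in the knockout, against 12.99, 12.99 and 12.87 in wild type (0.48, SE 0.05, adjusted p = 0.000732). Its level was 140% of wild type, with the smallest p of the 44. Col6a1 read 12.60, 12.70 and 12.46 in the knockout, against 12.32, 12.32 and 12.16 in wild type (0.32, SE 0.07, adjusted p = 0.017). The third chain, Col6a2, read 12.86, 12.92 and 12.73 in the knockout, against 12.72, 12.74 and 12.57 in wild type. There the groups overlapped (0.16, adjusted p = 0.141, or 0.0201 with the replicate block). Col7a1 read 10.80, 10.98 and 10.93 in the knockout, against 10.40, 10.42 and 10.51 in wild type (0.46, SE 0.06, adjusted p = 0.00166). The Col6a1 call ended without wild-type array 3 (adjusted p = 0.0634) or knockout array 2 (0.0728), and under quantile normalization (0.055).

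Of the 6 type IV genes, 2 rose and 1 fell. Col4a1 read 13.26, 13.37 and 13.30 in knockout fibroblasts, against 13.07, 13.13 and 13.01 in wild type (0.24, SE 0.05, adjusted p = 0.0128). Col4a2 read 12.76, 12.94 and 12.84 in the knockout, against 12.42, 12.57 and 12.44 in wild type (0.37, SE 0.06, adjusted p = 0.00489). Col4a5 went the other way, with 10.07, 10.07 and 10.04 in the knockout, against 10.43, 10.35 and 10.20 in wild type (-0.26, SE 0.06, adjusted p = 0.0225). In all 3 genes the groups were separate. The call of Col4a1 ended without wild-type array 3 (adjusted p = 0.0575) or knockout array 2 (0.0688). That of Col4a5 ended without wild-type array 1 (0.0779) or 2 (0.083), without knockout array 2 (0.0786) or 3 (0.057), and without both arrays numbered 1 (0.0746). Col4a3, Col4a4 and Col4a6 differed by at most 0.04.

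The fibrillar genes were split, with 2 of 10 higher and 2 lower. Col5a3, a type V chain, read 11.25, 11.16 and 10.82 in knockout fibroblasts, against 10.70, 10.66 and 10.33 in wild type (0.51, SE 0.12, adjusted p = 0.0241). Array 3 was the lowest of its group in both genotypes. Col5a1 read 13.11, 13.15 and 13.03 in the knockout, against 12.98, 12.90 and 12.87 in wild type (0.18, SE 0.05, adjusted p = 0.0448). The third type V chain, Col5a2, was lower instead, at 12.92, 12.96 and 12.90 in the knockout, against 13.13, 13.15 and 13.10 in wild type (-0.20, SE 0.04, adjusted p = 0.014). Col3a1 was lower too, at 12.77, 12.77 and 12.70 in the knockout, against 13.09, 12.98 and 12.97 in wild type (-0.27, SE 0.05, adjusted p = 0.0072). Col3a1 stood at 83.2% and Col5a2 at 87.0% of wild type, and the groups did not overlap in any of the 4 genes. Col3a1 and Col5a2 are neighbours on chromosome 1, 24.6 kb apart in the RefSeq annotation of GRCm38.p6. The Col5a1 call ended without wild-type array 1 (0.0506), 2 (0.135) or 3 (0.156), without knockout array 1 (0.0643) or 2 (0.177), and under quantile normalization (0.0506). The Col5a3 call ended without wild-type array 3 (0.0755) or knockout array 1 (0.0533) or 2 (0.0985), and the Col5a2 call without wild-type array 2 (0.0637).

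Type I collagen did not pass the test. Col1a1 read 14.62, 14.66 and 14.62 in knockout fibroblasts, against 14.68, 14.76 and 14.69 in wild type, so the groups were separate but 0.08 apart (95% interval of the difference -0.17 to 0.02, adjusted p = 0.281). Col1a2 read 14.21, 14.22 and 14.18 in the knockout, against 14.25, 14.21 and 14.23 in wild type, with overlap (interval -0.12 to 0.06). Both lie near the top of the value range, which ends at 15.36 in these arrays, and whether the signal was compressed there was not tested. Col11a1 differed by -0.19 (adjusted p = 0.119, or 0.0197 with the replicate block and 0.0348 after quantile normalization), and Col2a1, Col11a2 and Col27a1 by 0.14, 0.10 and 0.09. None of the 5 FACIT genes passed. The nearest was Col16a1 at 0.22 (adjusted p = 0.054, or 0.0162 with the replicate block), and the other 4 differed by -0.03 to 0.01. Among the remaining collagens, Col8a1 differed by -0.16 (adjusted p = 0.184, or 0.0406 with the block), and Col8a2, Col10a1, Col13a1, Col15a1 and Col17a1 did not pass.

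Of the 12 enzyme and chaperone genes, 2 lysyl oxidases rose and none fell. Lox read 14.28, 14.26 and 14.27 in knockout fibroblasts, against 13.97, 13.83 and 13.90 in wild type (0.37, SE 0.05, adjusted p = 0.00146). The 3 knockout values lay within 0.02 of each other and above all wild-type values, at 129% of wild type. Loxl1, which is known for elastic fibres, read 11.48, 11.57 and 11.45 in the knockout, against 11.35, 11.30 and 11.19 in wild type (0.22, SE 0.05, adjusted p = 0.0327). Its call ended without wild-type array 2 (0.0823) or 3 (0.123), without knockout array 2 (0.137), and under quantile normalization (0.0958). Loxl2 and Loxl4 differed by 0.28 and 0.27 (adjusted p = 0.148 and 0.0806, or 0.00263 and 0.0153 with the replicate block), and Loxl3 by -0.09. The hydroxylases did not pass: Plod1, Plod2 and Plod3 differed by -0.01, -0.04 and 0.09, P4ha1 and P4ha2 by -0.05 and 0.10, and P4ha3 by -0.28 (adjusted p = 0.0954, or 0.0211 with the block). Serpinh1 read 13.90, 13.81 and 13.71 in the knockout, against 13.99, 13.97 and 13.92 in wild type, separate but short of the threshold (-0.15, adjusted p = 0.0936, or 0.0282 with the block).

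**Figure D2:**
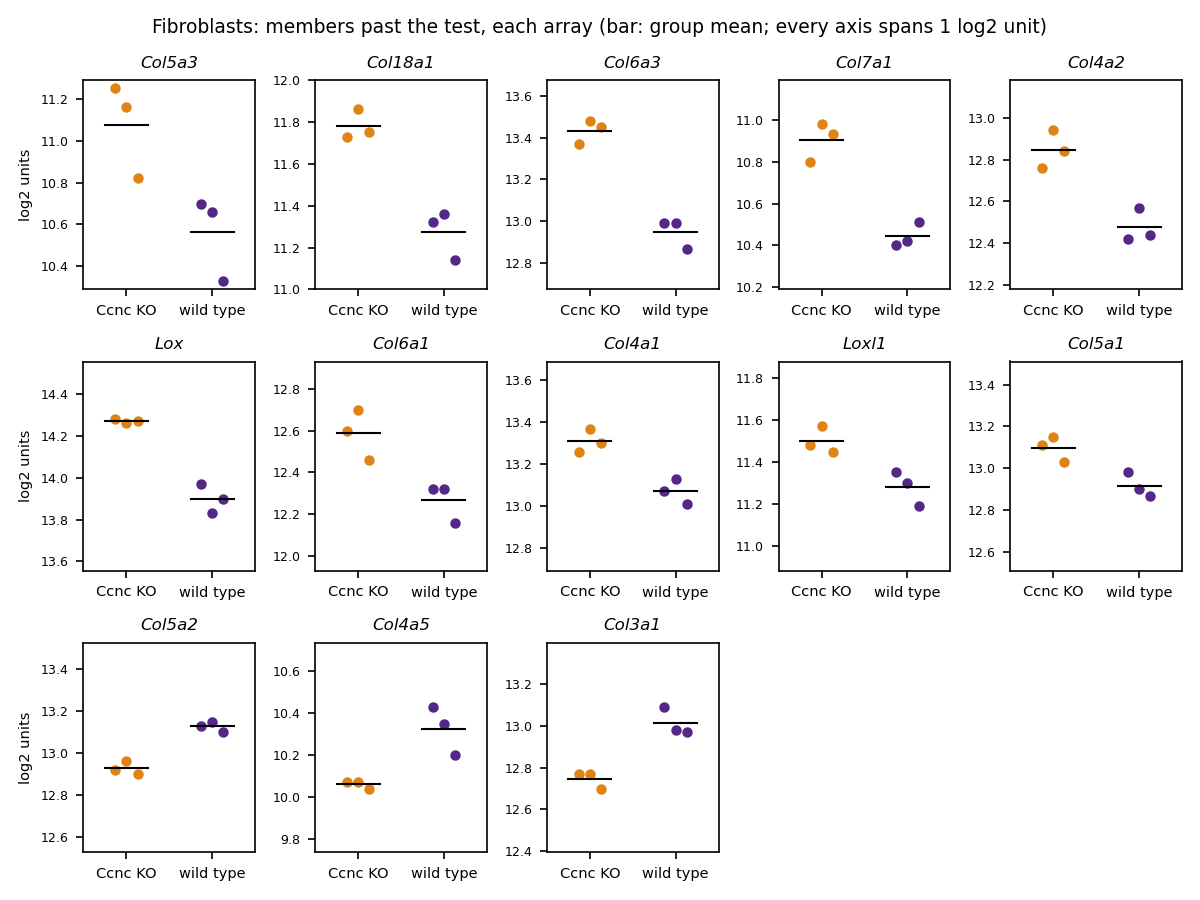
Values in each array, in log2 units on the y axis, for the 13 members past the test in fibroblasts, with the 3 Ccnc knockout arrays at left and the 3 wild-type arrays at right of every panel and bars for group means. Each axis spans 1 log2 unit and starts above 0. The knockout points lie above all wild-type points in 10 panels and below them in the panels of Col5a2, Col4a5 and Col3a1.

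Some members sit close together in the genome. Col4a1 and Col4a2, whose starts are shown, both rose in knockout fibroblasts. Of the other close pairs, Col4a5 fell while its neighbour Col4a6, whose start lies 1343 bases away on chromosome X, did not pass the test, and neither of the overlapping genes Col4a3 and Col4a4 passed. Col4a1 and Col4a2 are read in opposite directions from start sites 21 bases apart on chromosome 8, so that the 300-base windows around both starts, from 250 bases before to 50 after, share their last 78 bases. The windows below are RefSeq sequence of GRCm38.p6, written 5′ to 3′ along each gene's own strand. Col4a1 lies at chr8:11312777-11313076 on the minus strand and Col4a2 at chr8:11312555-11312854 on the plus strand. Capitals mark the shared bases, which each strand reads as the reverse complement of the other.
Col4a1: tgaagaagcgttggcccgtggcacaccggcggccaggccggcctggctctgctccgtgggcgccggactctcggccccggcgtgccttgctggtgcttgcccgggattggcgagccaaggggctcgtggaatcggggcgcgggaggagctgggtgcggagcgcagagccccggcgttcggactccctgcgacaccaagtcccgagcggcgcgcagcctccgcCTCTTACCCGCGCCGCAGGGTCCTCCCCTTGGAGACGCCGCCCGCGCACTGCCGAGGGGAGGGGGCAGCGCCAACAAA
Col4a2: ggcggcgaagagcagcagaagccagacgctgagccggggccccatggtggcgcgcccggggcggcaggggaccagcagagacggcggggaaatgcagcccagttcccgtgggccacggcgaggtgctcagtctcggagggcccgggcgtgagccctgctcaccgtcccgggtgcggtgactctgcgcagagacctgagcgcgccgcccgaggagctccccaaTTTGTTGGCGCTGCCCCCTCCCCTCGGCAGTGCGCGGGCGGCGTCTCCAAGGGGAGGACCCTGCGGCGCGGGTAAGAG

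Windows of 4 further genes that changed in knockout fibroblasts differ in the short motifs whose letters they hold. Col6a3, which rose with the smallest p, lies at chr1:90843922-90844221 (minus strand). Col3a1, which fell, lies at chr1:45311288-45311587 (plus strand). Col7a1, which rose, lies at chr9:108953336-108953635 (plus strand), and Col6a1, which also rose, at chr10:76725995-76726294 (minus strand). Capitals mark matches, on either strand, to 5 short motifs. These were the CCAAT box, the GC box with the letters GGGCGG, the TATA box with TATAAA, the AP-1 site with TGACTCA and a SMAD-type element with CAGACA.
Col6a3: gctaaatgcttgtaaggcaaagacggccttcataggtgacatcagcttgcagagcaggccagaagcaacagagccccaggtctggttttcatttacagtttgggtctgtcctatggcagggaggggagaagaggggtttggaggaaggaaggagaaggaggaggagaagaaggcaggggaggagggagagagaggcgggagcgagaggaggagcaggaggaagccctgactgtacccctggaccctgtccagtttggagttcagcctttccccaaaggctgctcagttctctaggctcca
Col3a1: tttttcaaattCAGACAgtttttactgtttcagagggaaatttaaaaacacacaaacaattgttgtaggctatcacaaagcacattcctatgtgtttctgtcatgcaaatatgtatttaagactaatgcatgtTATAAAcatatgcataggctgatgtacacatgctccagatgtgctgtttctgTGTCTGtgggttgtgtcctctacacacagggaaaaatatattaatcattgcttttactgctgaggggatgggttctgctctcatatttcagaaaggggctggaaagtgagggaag
Col7a1: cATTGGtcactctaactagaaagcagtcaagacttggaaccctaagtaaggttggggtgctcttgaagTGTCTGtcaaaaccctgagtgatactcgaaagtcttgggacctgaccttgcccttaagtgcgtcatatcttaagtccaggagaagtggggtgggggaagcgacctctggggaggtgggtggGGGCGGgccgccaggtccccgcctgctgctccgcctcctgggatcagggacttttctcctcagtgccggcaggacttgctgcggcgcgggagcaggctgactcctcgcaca
Col6a1: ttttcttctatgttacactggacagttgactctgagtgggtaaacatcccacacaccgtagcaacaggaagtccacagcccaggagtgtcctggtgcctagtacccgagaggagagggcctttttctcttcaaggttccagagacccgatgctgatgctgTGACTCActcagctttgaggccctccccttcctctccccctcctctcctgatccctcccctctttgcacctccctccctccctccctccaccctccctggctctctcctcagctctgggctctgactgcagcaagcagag
Col6a3 holds none of the 5 motifs in this window. Col3a1 is AT-rich, with 37.7% G and C. It holds the letters TATAAA 117 bases before the start, and whether they act as a TATA box was not tested. Its matches to the SMAD-type element lie 239 and 65 bases before the start. Col7a1 holds the CCAAT box, the SMAD-type element and the GC box at 249, 182 and 61 bases before its start. Col6a1 holds the AP-1 site 90 bases before its start.

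The promoter table had windows for 33 of the member genes, 36 in all, beside 32851 for all genes. Of the 36, 24 held the GC box (66.7%, against 35.7% of all windows), 12 the CCAAT box (33.3%, against 37.4%), 8 the SMAD-type element (22.2%, against 21.0%), 7 the TATA box (19.4%, against 13.6%) and 1 the AP-1 site (2.8%, against 5.2%), that of Col6a1. The motifs differ in letters and were counted on both strands, without regard to one match lying over another. The member windows were richer in G and C, with a median of 61.7% against 52.7%. These matches describe the letters only. Col6a1 has 2 member neighbours on chromosome 10, Col6a2 at 85.2 kb and Col18a1 at 326.1 kb, and all 3 lie on the minus strand. In knockout fibroblasts Col6a1 and Col18a1 rose, while Col6a2, the nearer neighbour, did not pass the test.

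Of the other genes of the collagen pathway, 37 of 42 were measured. In the same comparison 9 were higher, 1 was lower and 27 did not pass, while 12.0% of all genes passed. The 4 with the smallest p were Tgm2, which encodes a transglutaminase that cross-links matrix proteins (1.36, SE 0.10, adjusted p = 0.000202), Bmp1, the procollagen C-proteinase (0.45, SE 0.05, 0.000886), P3h1, a prolyl 3-hydroxylase (0.37, SE 0.05, 0.00313) and the endoplasmic reticulum folding enzyme Fkbp14 (0.37, SE 0.07, 0.00853). Tgm2 read 10.20, 10.10 and 9.88 in knockout fibroblasts, against 8.91, 8.62 and 8.56 in wild type, without overlap. Bmp1 read 10.34, 10.45 and 10.35 in the knockout, against 9.96, 9.88 and 9.93 in wild type. The single gene that fell was Tll1, a relative of Bmp1 (-0.32, adjusted p = 0.012), and it is named here after its value was seen. The same holds for Crtap and Ppib, which form a complex with P3h1 and rose by 0.18 and 0.17 (adjusted p = 0.0498 and 0.0456).

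Markers of cell state moved beside the collagens. Of 12 fibroblast markers, 6 were lower and none higher in knockout fibroblasts, led by Pdgfra (-1.11), Dcn (-1.22), Lum (-1.02) and Twist2 (-0.27). The log2 of their summed level was 15.88 to 15.93 in the knockout, against 16.05 to 16.09 in wild type. Of 10 smooth muscle and myofibroblast markers, 6 were higher and none lower, led by Myh11 (0.93), Tpm1 (0.26), Cnn1 (0.48) and Smtn (0.30). Their summed level was 16.40 to 16.52 in the knockout, against 16.11 to 16.29 in wild type. Of 9 epithelial markers 3 were higher, with a summed level of 11.11 to 11.29 in the knockout, against 10.56 to 10.68 in wild type, and of 10 endothelial markers 2 were higher (11.47 to 11.50, against 11.27 to 11.39). Of 12 neuron and neural progenitor markers 3 were higher and 1 lower, with a summed level of 11.24 to 11.46 in the knockout, against 11.05 to 11.07 in wild type. Of 7 pericyte markers 1 was higher and 1 lower (11.06 to 11.24, against 11.04 to 11.08). These counts stand beside 12.0% of all genes called. No cartilage, extraembryonic endoderm, ES cell, meningeal, choroid plexus or microglia and blood marker passed the test. The part of these shifts in the collagen results was not tested.

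In ES cells, none of the 44 members passed the test in the comparison of knockout with wild type, where 0.0117% of all genes did. By limma 2 members had an unadjusted p below 0.05, Col6a3 and P4ha2, which is 4.55% of them against 8.46% of all genes. The 5 with the smallest p are given as values. Col6a3 read 7.86, 7.45 and 7.60 in knockout ES cells, against 8.05, 8.09 and 7.84 in wild type (-0.36, SE 0.14, adjusted p = 0.569), and the groups overlapped. P4ha2 read 11.89, 9.80 and 10.34 in the knockout, against 9.75, 9.35 and 9.51 in wild type (1.14, SE 0.48, adjusted p = 0.587). Col4a2 read 12.69, 9.80 and 10.14 in the knockout, against 9.75, 8.91 and 9.07 in wild type (1.63, SE 0.70, adjusted p = 0.59). Neither P4ha2 nor Col4a2 overlapped between genotypes, but knockout array 1 stood far above the other 2 knockout arrays in both. Col4a1 read 13.32, 10.57 and 11.03 in the knockout, against 10.89, 9.74 and 9.86 in wild type (1.48, SE 0.68, adjusted p = 0.598). Col6a1 was lower on average, with 7.35, 7.17 and 6.82 in the knockout, against 7.26, 7.50 and 7.59 in wild type (-0.34, SE 0.16, adjusted p = 0.606). In all, 4 of the 44 members had groups that did not overlap, as did 15.6% of all genes. Col4a2 and P4ha2 were higher and Col6a2 and Col9a3 lower in the knockout (6.34% and 9.30% of all genes).

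Knockout array 1 was the highest of the 6 ES cell arrays for several genes of collagen folding, hydroxylation and cross-linking as well. The chaperone gene Serpinh1 read 13.20, 11.01 and 10.43 in the knockout, against 11.17, 10.52 and 10.65 in wild type. Loxl2 read 10.60, 8.96 and 9.14 in the knockout, against 9.76, 8.87 and 8.77 in wild type, and Plod1 read 11.24, 9.52 and 9.76, against 10.23, 9.30 and 9.78. In wild-type ES cells array 1 was the highest of its 3 for all of these genes and for Col4a1 and Col4a2. Markers of extraembryonic endoderm, which lays down a thick basement membrane, stood out in the same array. Their mean over 12 genes was 10.28, 7.68 and 7.84 in the knockout, against 8.01, 7.59 and 7.58 in wild type, and the log2 of their summed level was 15.06, 11.99 and 12.09, against 12.55, 11.75 and 11.71. All 12 were higher on average in the knockout and none passed the test. The defining genes Gata4 and Gata6 read 9.95 and 10.80 in knockout array 1, against 7.63 and 7.81 or less in wild type. The part of these markers in the collagen values of that array was not tested. Without knockout array 1, the difference was 0.64 for Col4a1, 0.72 for Col4a2 and 0.53 for P4ha2, and it was -0.06 for Serpinh1, -0.08 for Loxl2 and -0.13 for Plod1. Without both arrays numbered 1 it was 1.0 for Col4a1, 0.98 for Col4a2, 0.64 for P4ha2, 0.13 for Serpinh1, 0.23 for Loxl2 and 0.10 for Plod1 (adjusted p between 0.173 and 0.878). Col6a3 and Col6a1 were lower in those fits as well, by -0.44 and -0.55 without both.

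**Figure D3:**
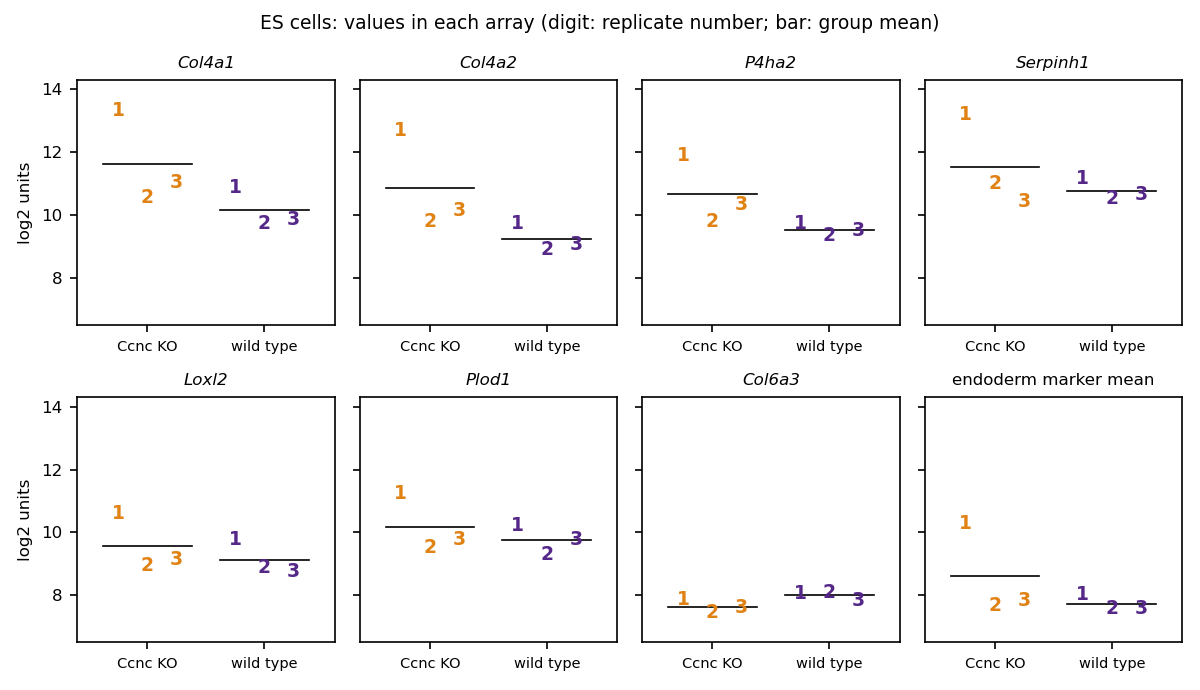
ES cell values in each array, in log2 units on the y axis, for 7 members and for the mean of 12 extraembryonic endoderm markers, with Ccnc knockout at left and wild type at right of each panel, digits for replicate numbers and bars for group means. Knockout array 1 lies above all other arrays for Col4a1, Col4a2, P4ha2, Serpinh1, Loxl2, Plod1 and the markers. For Col6a3 it lies above the other knockout arrays but not above all wild-type arrays. The axes start above 0.

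In brain, none of the 44 members passed the test in the comparison of knockout with wild type, where 0.00585% of all genes did. The targeted gene Ccnc did not pass it there either (limma adjusted p = 0.627), so a member that did not pass may still have changed. By limma 4 members had an unadjusted p below 0.05, which is 9.09% of them against 7.33% of all genes. Col11a1, a minor fibrillar chain, read 9.10, 9.14 and 8.89 in knockout brain, against 8.76, 8.73 and 8.75 in wild type (0.30, SE 0.09, adjusted p = 0.627). Col4a5 read 8.53, 8.35 and 8.51 in the knockout, against 8.05, 8.09 and 8.33 in wild type (0.31, SE 0.10, adjusted p = 0.627). Plod1, the first lysyl hydroxylase, read 8.83, 8.88 and 8.80 in the knockout, against 8.63, 8.62 and 8.65 in wild type (0.21, SE 0.08, adjusted p = 0.641). In these 3 genes every knockout value was above every wild-type value. Col2a1 and Col16a1 followed, with differences of 0.30 and 0.21 (adjusted p = 0.651 and 0.707). With the replicate number as a block none passed, and the lowest adjusted p was 0.178, for Col11a1. The groups did not overlap for 7 members, 6 higher and 1 lower (Loxl2), and for 14.0% of all genes (7.98% higher and 6.06% lower). Of the 32 collagens, 24 had a higher mean in knockout brain, as did 8625 of all 17091 genes. The median difference was 0.09 for the collagens and 0.06 for the 44 members, against 0.00 for all genes. Whether the collagens moved as a set was not tested.

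Type I collagen varied between brain arrays of 1 genotype. Col1a1 read 9.55, 11.02 and 9.56 in knockout brain, against 10.85, 9.74 and 10.01 in wild type, so that the 2 highest values came from 1 array of each genotype (95% interval of the difference -1.09 to 0.77). Col3a1 varied less, with 9.65, 9.87 and 9.66 in the knockout, against 9.53, 9.32 and 9.90 in wild type. Col4a1 of the vessel basement membrane read 11.16, 11.57 and 11.06 in the knockout, against 10.89, 11.39 and 10.88 in wild type, and Col4a2 read 10.01, 10.36 and 10.12, against 10.10, 10.46 and 9.78, with overlap in each gene. Meningeal fibroblast markers also varied, with a mean over 8 genes of 7.78, 8.40 and 8.40 in the knockout, against 7.86, 8.52 and 8.78 in wild type. None of the 8 passed the test, and the summed level was 10.95 to 12.16 in the knockout, against 11.15 to 12.68 in wild type. The array with the highest Col1a1 had one of the highest meningeal means in knockout brain and the lowest in wild-type brain. All 10 endothelial markers were higher on average in knockout brain and none passed, with a summed level of 12.14 to 12.30 in the knockout, against 12.01 to 12.26 in wild type. The part of these markers in the collagen values was not tested.

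The knockout effects were compared between cell types in 1 fit of all 18 arrays, where a difference of effects is itself tested. Each such test takes its spread from all 3 cell types, ES cells included, also where only fibroblasts and brain are compared. Col6a3 alone among the members differed, with an effect 0.84 larger in fibroblasts than in ES cells (SE 0.18, limma adjusted p = 0.035), where 0.995% of all genes differed. Its effect was 0.48 in fibroblasts and -0.36 in ES cells. That call ended without any 1 of the 6 fibroblast arrays (adjusted p = 0.0651 to 0.107), without wild-type ES cell array 2 (0.0601) or without knockout ES cell array 3 (0.0565), while the difference stayed between 0.75 and 0.95. Its partner chains followed in sign, with differences of 0.66 for Col6a1 and 0.34 for Col6a2 (adjusted p = 0.157 and 0.203). Loxl1 and Col18a1 had differences of 0.49 and 0.51 (adjusted p = 0.124 and 0.13). Between fibroblasts and brain no member passed (0.334% of all genes did), with 4 at an unadjusted p below 0.05 (9.09%, against 9.79% of all genes): Col7a1 (0.47), Col4a5 (-0.57), Col11a1 (-0.50) and Lox (0.57). The Col4a5 effect was -0.26 in fibroblasts and 0.31 in brain. Without ES cell knockout array 1, 115 genes passed for fibroblasts against brain, rather than 57, and still no member. Between brain and ES cells no member passed either (0.275% of all genes did), with 3 at an unadjusted p below 0.05 (6.82%, against 15.0% of all genes), Col6a3 (0.50), P4ha2 (-1.17) and Col4a2 (-1.58). For P4ha2 and Col4a2 these differences include ES cell knockout array 1, described above.

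**Figure D4:**
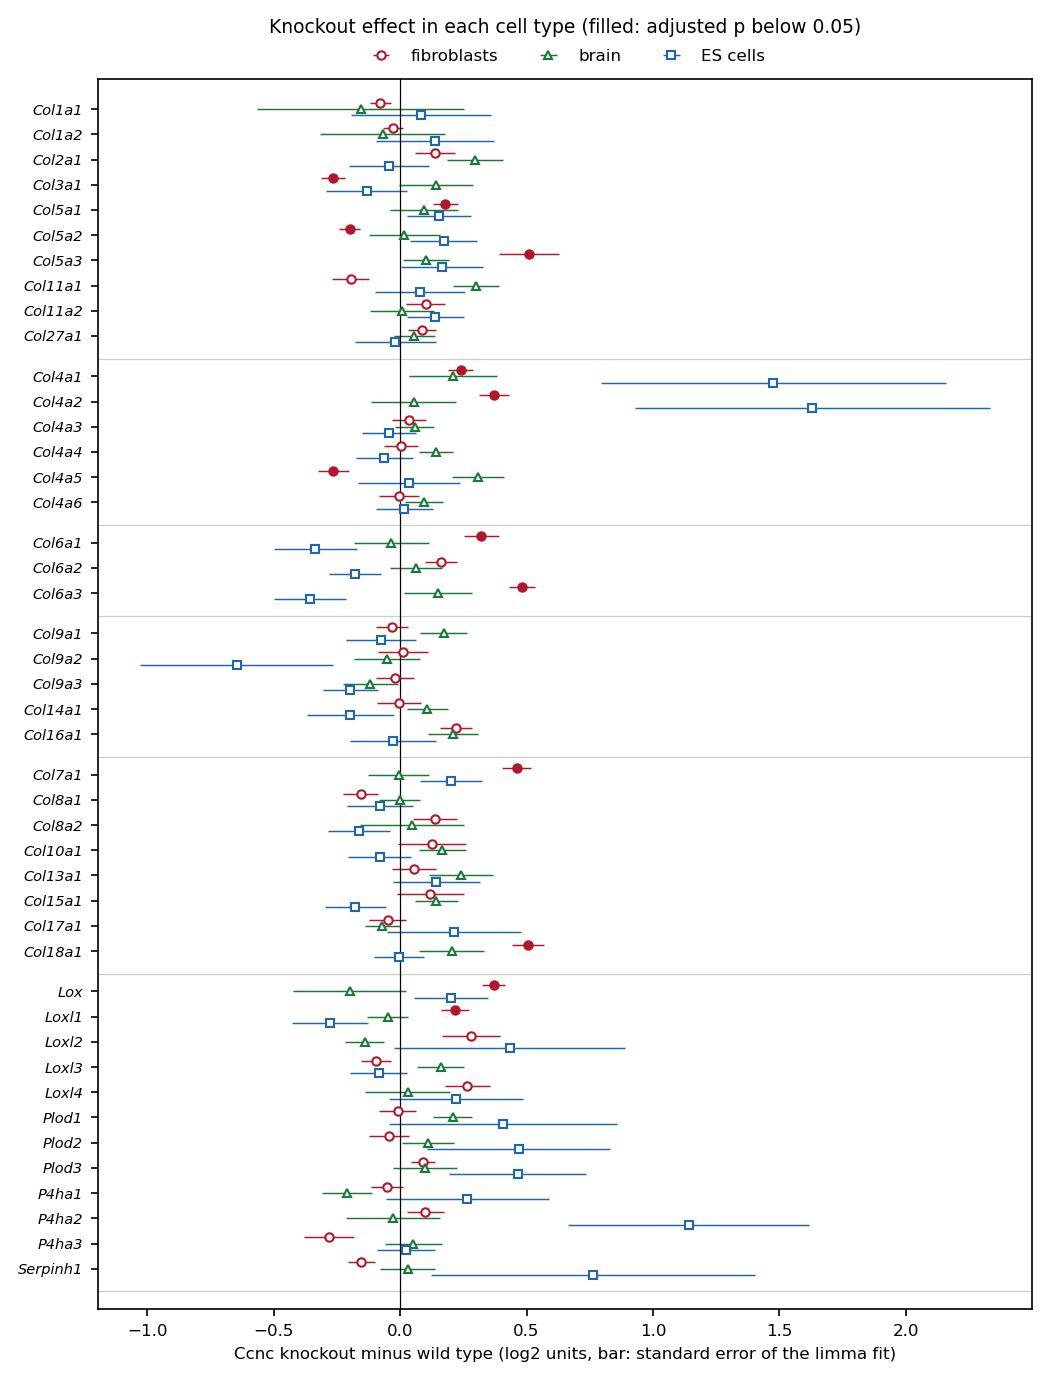
Ccnc knockout minus wild type for each of the 44 members, in log2 units on the x axis, in fibroblasts, brain and ES cells, with standard errors of the limma fit as bars and filled points for an adjusted p below 0.05. The 13 filled points are all fibroblast points and lie between -0.27 and 0.51, while the widest bars belong to Col4a1 and Col4a2 in ES cells.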

How the data were processed

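The 18 arrays (6 groups of 3) were grouped by the labels' genotype and tissue. The authors deposited log2 expression values made with RMA, per the submitters' processing notes. Its version, the chip used and whether the arrays were processed jointly are not given in the sources. Of 24121 transcript probe sets, 22560 matched 1 RefSeq symbol (GRCm38.p6) and 1561 matched none. No member shared its values with another gene. RMA would remove a shift common to most genes only among arrays that were normalized together. Arrays give no read depth, and 3 per group limit the precision.

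Knockout was tested against wild type within each cell type, and the 3 wild-type groups in 1 fit of 9 arrays, with limma 3.58.1 in R 4.3.3 (intensity trend, no filter, 2-sided, Benjamini-Hochberg over 17091 genes, called below 0.05). Differences of effects came from 1 fit of 18 arrays. The fits were checked on simulated data. Figures used matplotlib 3.10.9 in Python 3.11.15.

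Members, gene lists and tests were chosen with earlier results of these data known. All members could be named; those called in a comparison were described, or the 5 with the smallest p where under 5 were called, and up to 4 genes of each other list. Not measured among the other pathway genes were Col28a1, P3h2, Tll2, Adamts14 and Itga11.

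Replicate numbers from the labels were taken to pair arrays where same-numbered knockout and wild-type arrays deviated together from their groups' means, with every correlation across genes above 0.1: fibroblasts (0.36, 0.16 and 0.19) and brain (0.29, 0.35 and 0.47), but not ES cells (0.37, 0.32 and 0.08). This pairing comes from the values. Alternatives were 1 fit of all 18 arrays, the replicate block, averaging the probe sets of a gene, dropping genes below the 40th percentile, quantile normalization, centring on medians, other priors, and leaving out arrays.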

Additional observations from a re-analysis of the deposited data

Results flagged for a closer look

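The Ccnc knockout effect on Col6a3 differed between cell types by a test of the difference itself. It was 0.84 log2 units larger in fibroblasts than in ES cells (SE 0.18, limma adjusted p = 0.035). Col6a3 was higher in 3 of 3 knockout fibroblast arrays than in any wild-type one, and lower on average in knockout ES cells, where the genotypes overlapped. The call ended without any 1 of the 6 fibroblast arrays (adjusted p = 0.0651 to 0.107), without wild-type ES cell array 2 (0.0601) or without knockout ES cell array 3 (0.0565).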

How the results depend on the processing

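Members that were called kept their direction under every alternative run, whereas the uncalled ES cell differences of Serpinh1, Loxl2 and Plod1 changed sign without knockout array 1. In knockout fibroblasts, 1 fit of all 18 arrays called 2 members higher and 0 lower, since it takes its spread from all 3 cell types. The replicate block called 7 lower. Without an intensity trend, Col5a1 and Loxl1 were no longer called (limma adjusted p = 0.0896 and 0.0644). Leaving out 1 array gave 5 to 11 higher and 1 to 4 lower. The filter at the 40th percentile, which keeps 33 members, left 1 member lower in fibroblasts than in ES cells and 1 lower than in brain among wild types, and leaving out 1 array gave 3 to 5 lower than in brain. For the effect in fibroblasts minus that in ES cells, the replicate block called 2 members higher, and leaving out 1 array gave 0 to 2 higher and 0 to 1 lower. For brain minus ES cells, leaving out 1 array gave 0 to 1 lower. The replicate block changed no other count of members by over 1.5 times. Over all genes it called 523 for fibroblasts minus ES cells, 183 for fibroblasts minus brain, 323 for brain minus ES cells and 15 in brain, where the fits without it called 170, 57, 47 and 1. Between ES cell genotypes the numbers were not taken as pairs, and the block called 0 members. In the differences of effects the block still paired same-numbered arrays within all 3 cell types, ES cells included. Among wild types it tied equal numbers across cell types, where the correlations of deviations were -0.11 to 0.11. In ES cells and brain no alternative called a member. The spread between 3 arrays limits what could be called, most in ES cells.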
